A study of Mus musculus with 2 samples.

Results

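The genes described here encode actins, actin-related proteins, myosins, the actin-binding proteins of smooth muscle, desmin, vimentin and keratins. They were taken by gene name, as the non-control probes of the array whose gene name starts with Actr, Actl, Tagln, Mylk, Cald1 or Krt, starts with Acta, Actb, Actg, Actn, Myo, Myh, Myl, Tpm or Cnn followed by a number, or is Des or Vim. This gave 85 of 11142 genes, read by 118 of 15208 probes. RNA came from isolated Sertoli cells, which nurse germ cells inside the seminiferous tubule, of adult male Swiss mice aged 3 months. The busulphan group had received 25 mg/kg of the drug 1 month before, and the control group was untreated. Busulphan is an alkylating drug that depletes the germ cells of the testis. In both groups the testes were digested with collagenase and then with collagenase and hyaluronidase, and what a fine cell strainer retained was taken without culture. Each group had 1 preparation on 1 array, from a number of mice that is not given in the sources used here.

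Actin filaments are built from actin monomers, started by nucleators such as the Arp2/3 complex, bundled by alpha-actinins and covered by tropomyosins. Class II myosins pull on them to give contraction, and unconventional myosins carry cargo along them or tie them to membranes. In the testis, bundled actin of Sertoli cells lies at the junctions with neighbouring cells and with spermatids, and smooth muscle actin marks the peritubular myoid cells that wrap and squeeze the tubule. Vimentin is the main intermediate filament of adult Sertoli cells, and keratins form the intermediate filaments of epithelia.

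The ratios below are log2 of busulphan over control after each array's signals were divided by their 75th percentile, a signal of 905 on the busulphan array and 1046 on the control array. On the busulphan array 79.3% and on the control array 80.9% of non-control probes were well above background. With 1 array per group there was no replicate check and no test, and a gene was called by size, at a ratio of at least 2-fold either way. The scanner software's own error of a ratio had a median of 0.20 on the log2 scale over the members, which covers noise of the spot and not of mice or preparations. Of 9430 genes compared, 2952 were called higher and 2784 lower in the busulphan preparation, and the median log2 ratio was 0.068. Sertoli cell markers were at least 2-fold higher in that preparation for 16 of 17 genes, with summed scaled signals of 216 against 26.7 in control. All 11 spermatid markers were lower, with summed scaled signals of 40.8 in busulphan and 517 in control. Oaz3, Tnp2, Gapdhs, Smcp, Tnp1, Prm2 and Prm1 were saturated in control, so their ratios are bounds and 517 is a lower limit. Clu and Ctsl, saturated in busulphan at 68019 and 72423, made up most of the Sertoli cell sum of 216, also a lower limit. In such bulk RNA fewer cells of a type and less RNA per cell cannot be told apart.

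Of the 85 member genes, 80 could be compared and 5 keratins (Krt1, Krt31, Krt34, Krt71 and Krt82) were not well above background on either array. Among the 80, 24 (30.0%) lay at least 2-fold higher in busulphan than in control, against a background of 31.3% of all genes. Another 18 (22.5%) were at least 2-fold lower, against 29.5% of all genes, and 38 stayed within 2-fold. Over all genes 60.8% were past 2-fold either way. The share of higher members was thus close to the background and that of lower members below it. The order of the lower shares depended on how dim probes were handled. With measured values in place of bounds 28.8% of members were lower, against 31.3% of all genes. With measured values and no filter on dim probes it was 30.6% against 29.0%. The median log2 ratio of the members was 0.15 and their range ran from -5.62 (Actl7a) to 4.05 (Myo7a). Scaling to spike-in controls, which shifts the median of all genes by -0.91, left 10 members (13.2%) higher and 34 (44.7%) lower, with a median of -0.78. Over all genes that scaling gave 16.4% higher and 47.1% lower, so these member shares were near the background. Calls were the same under all 7 scalings for 42 of the 80 genes. Among these, 10 were higher under every scaling (Actn3, Actr2, Actr3, Actr3b, Myh9, Myo10, Myo1d, Myo6, Myo7a and Vim). A further 16 were lower under every scaling, among them Actl7a, Actl7b, Actl6a, Actr8, Actr10, Myh10, Myh14, Myl4, Myo1a and Krt8. Of these 16, Krt7, Krt15, Myh14, Myl3, Myo7b and Myo15 were within 2-fold with normexp background correction. The share of all genes with a call kept under every scaling was not computed, so these counts have no background beside them. The sign of the ratio turned under at least 1 scaling for 17 genes, and 5 dim or saturated genes had no value under at least 1 scaling.

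**Figure D1:**
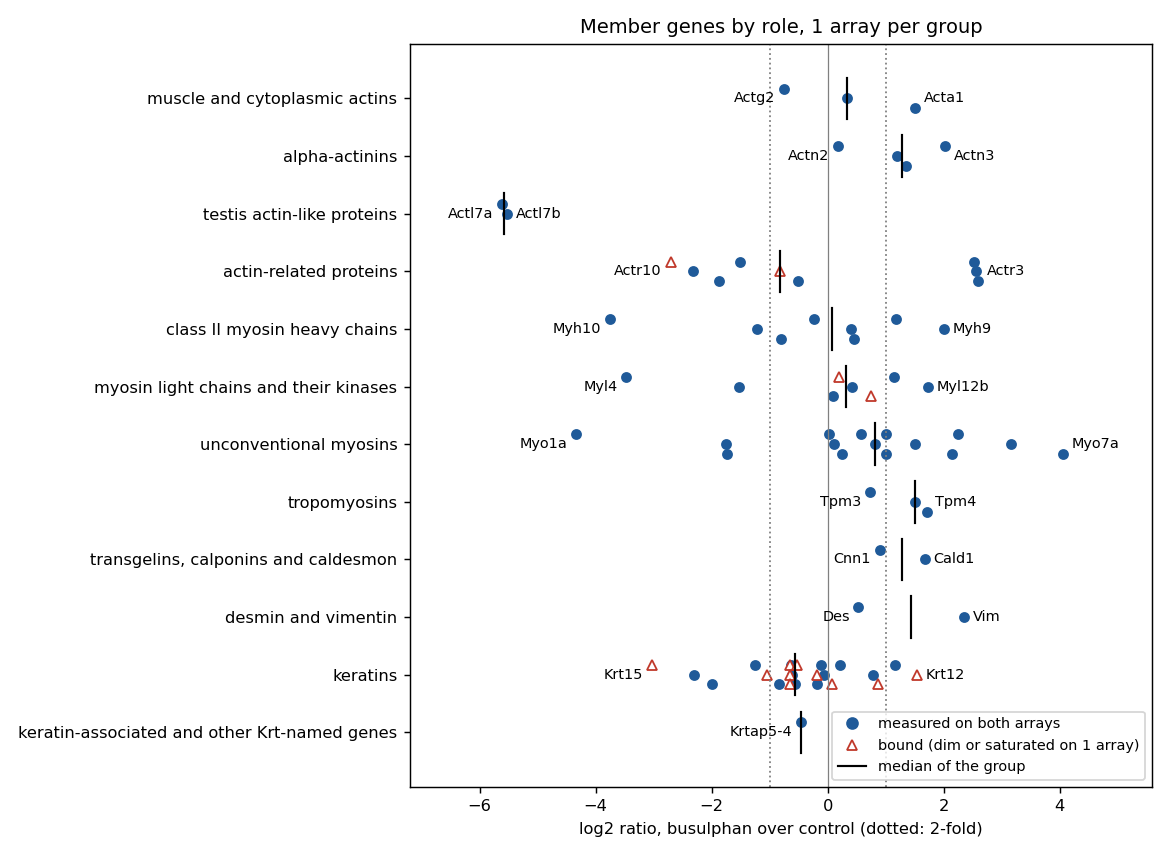
Log2 ratio of busulphan over control (horizontal axis) for the 80 member genes compared, in rows by role, with 1 array per group. Filled points were measured on both arrays, triangles are bounds for genes dim or saturated on 1 array, black bars are medians of a row and dotted lines mark 2-fold; both testis actin-like genes lie below -5 and Myo7a lies above 4.

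The genes of the smooth muscle contractile apparatus had log2 ratios between -0.75 and 1.67. Each was read by probes of 60 bases. The sequences below are shown because these probes cross an exon junction, so their span on the genome is longer than the probe, and because the ratios of smooth muscle actin and myosin rest on them. Both are given 5′ to 3′ as in the deposited array files.
Acta2 probe, chr19:34322995-34326249 of mm9, minus strand: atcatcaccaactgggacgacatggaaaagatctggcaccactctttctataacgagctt
Myh11 probe, chr16:14195223-14198147 of mm9, minus strand: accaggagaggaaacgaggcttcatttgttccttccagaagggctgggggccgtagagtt
Among all member probes 29 crossed a junction in this way, with spans of 3255 bases for Acta2 and 2925 for Myh11.

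Acta2, the smooth muscle alpha-actin, had a signal of 22289 in busulphan and 20355 in control, a log2 ratio of 0.34 that became -0.54 under spike-in scaling. The other Acta2 probes, dimmer on both arrays, gave 0.86 (4436 in busulphan, 2827 in control) and 1.70 (388 in busulphan, 138 in control). The size for Acta2 thus depended on the probe. Its brightest probe was within 2-fold in the main scaling, but at 1.24 under quantile scaling. Actg2, the gamma-actin of enteric smooth muscle, had 7766 in busulphan and 15100 in control, a ratio of -0.75. It was -0.023 under quantile scaling and -1.63 under spike-in scaling, where it passed 2-fold. Acta1, the alpha-actin of skeletal muscle, had 2825 in busulphan and 1145 in control, 2.85-fold higher, and 0.63 on the log2 scale under spike-in scaling. Outside the pattern, the cytoplasmic beta-actin Actb had 7098 in busulphan and 4199 in control (log2 ratio 0.97) and the cardiac alpha-actin Actc1 12220 in busulphan and 5562 in control (1.34). The cytoplasmic gamma-actin Actg1, the regulatory light chain Myl9 and the smooth muscle protein Tagln were not analysed here.

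Myh11, the myosin heavy chain of smooth muscle, had 19253 in busulphan and 9777 in control, 2.28-fold higher. Mylk, the kinase that switches on smooth muscle myosin by phosphorylating its light chain, had 23617 in busulphan and 12410 in control, 2.20-fold higher. Spike-in scaling took both under 2-fold, to 0.30 for Myh11 and 0.25 for Mylk. A second bright Mylk probe gave 0.90. Cnn1, a calponin that restrains actomyosin, had 8996 in busulphan and 5575 in control, a ratio of 0.90 that was 0.017 under spike-in scaling. Cald1 encodes caldesmon, which binds actin and tropomyosin. Its brighter probe gave 1336 in busulphan and 485 in control (log2 ratio 1.67), and its other probe 250 in busulphan and 348 in control (-0.27). Under spike-in scaling the brighter probe was within 2-fold, at 0.79. The probes of Cald1 thus disagreed in direction, and which of its transcripts each one reads was not tested. Desmin (Des), the intermediate filament of muscle, had 804 in busulphan and 643 in control, a ratio of 0.53 that turned to -0.35 under spike-in scaling.

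As a group, the 8 contractile smooth muscle genes compared (Actg2, Acta2, Des, Cnn1, Mylk, Myh11, Tpm1 and Cald1) had 4 at least 2-fold higher and none lower. Of all genes 31.3% were higher and 29.5% lower. The median log2 ratio of these 8 was 1.02, beside 0.068 for all genes, and 0.14 under spike-in scaling, beside -0.85 for all genes. The other markers of peritubular myoid cells, outside the name pattern, numbered 10, of which 4 were higher and 1 lower, and their median of 0.71 turned to -0.17 under spike-in scaling. Their summed scaled signals were 65.4 in busulphan and 34.7 in control, and Pln was not well above background in control. Mgp, a matrix protein, was the highest of these at 10965 in busulphan and 2491 in control (2.35). The part of myoid cell content in the ratios of the contractile genes was not tested.

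**Figure D2:**
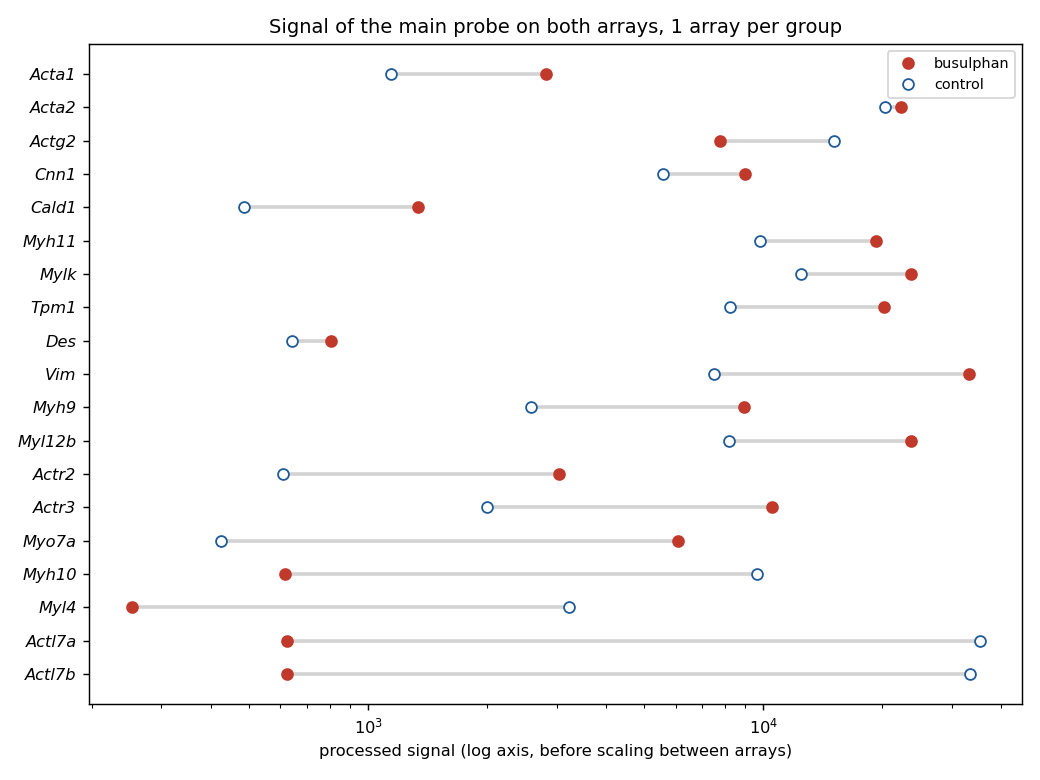
Processed signal (log axis, before scaling between arrays) of the main probe of 19 genes, with filled points for busulphan and open points for control, 1 array each. Acta2 hardly differs between arrays, most contractile and cytoskeletal genes lie further right in busulphan, and Actg2, Myh10, Myl4, Actl7a and Actl7b lie further right in control.

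Tropomyosins, which lie along the actin filament and control its access to myosin, were higher for 2 of 3 genes, beside 31.3% of all genes. Tpm4, a cytoskeletal form, had 4333 in busulphan and 1534 in control (3.26-fold). Tpm1, an alpha-tropomyosin with many splice forms, had 20213 in busulphan and 8242 in control by its brightest probe (2.83-fold). Spike-in scaling took both under 2-fold, to 0.82 for Tpm4 and 0.62 for Tpm1. Tpm3 had 591 in busulphan and 410 in control, a log2 ratio of 0.74 that turned to -0.15 under spike-in scaling. The other 2 Tpm1 probes cross exon junctions, and are shown because their ratios differ by the widest margin of any member gene.
Tpm1 probe with a ratio of 1.25, chr9:66880625-66881695 of mm9, minus strand: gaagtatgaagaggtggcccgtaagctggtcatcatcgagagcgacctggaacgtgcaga
Tpm1 probe with a ratio of 3.28, chr9:66875959-66877514 of mm9, minus strand: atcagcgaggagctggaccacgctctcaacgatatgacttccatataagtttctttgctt
The first of these, which spans 1071 bases, had signals of 8351 in busulphan and 4047 in control. The second, which spans 1556 bases, had 1383 in busulphan and 165 in control. All 3 Tpm1 probes were higher in the busulphan preparation by more than 2-fold, and the highest and the lowest ratio differed by 2.02.

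Alpha-actinins, which cross-link actin filaments, were at least 2-fold higher for 3 of 4 genes, beside 31.3% of all genes. The median log2 ratio of the alpha-actinins was 1.28, and 0.40 under spike-in scaling. Actn4, a non-muscle form, had 4231 in busulphan and 2127 in control (2.30-fold). Actn1, the other non-muscle form, had 473 in busulphan and 214 in control (2.56-fold). Under spike-in scaling both were within 2-fold, at 0.32 and 0.48. Actn3, a form of fast skeletal muscle, had 1384 in busulphan and 394 in control (4.06-fold), and 1.14 under spike-in scaling. Actn2, the cardiac and skeletal form, had 110 in busulphan and 111.9 in control, a ratio of 0.19 that turned to -0.70 under spike-in scaling. Of 10 skeletal muscle markers, 3 were higher and none lower, and their median of 0.34 turned to -0.54 under spike-in scaling. Acta1, Myh4, Myh7 and Myl1 of this list are themselves members, and Acta1 is 1 of the 3 higher. The myogenic factors Myod1 (12.9 in busulphan, 11.6 in control) and Myog (8.27 in busulphan, 9.77 in control) were just above background and the muscle creatine kinase Ckm was not well above it on either array.

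The lowest ratios of the members were those of the testis actin-like genes. Actl7a and Actl7b encode actin-like proteins of spermatids, the haploid germ cells. Actl7a had a signal of 622 in busulphan and 35302 in control, 49.1-fold lower. Actl7b had 622 in busulphan and 33262 in control, 46.3-fold lower. The calls held under all 7 scalings, where the log2 ratios ran from -6.50 to -5.19 for Actl7a and from -6.41 to -5.07 for Actl7b. Spermatid markers, which the name pattern does not hold, had a median of -6.16 with all 11 lower, and their part in the actin-like ratios was not tested. Of 15 spermatocyte markers, 12 were lower and none higher, and their median was -2.95.

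The starts of Actl7a and Actl7b lie 1997 bases apart on chromosome 4, on opposite strands, and their promoters are shown because both genes moved by nearly the same amount. Each sequence runs from 250 bases before to 50 bases after the start, from RefSeq on GRCm38.p6, 5′ to 3′ on the strand of the gene. Capitals mark the letters TGATGTCA, on either strand, which were picked after both promoters had been read.
Actl7a promoter, chr4:56743172-56743471, plus strand: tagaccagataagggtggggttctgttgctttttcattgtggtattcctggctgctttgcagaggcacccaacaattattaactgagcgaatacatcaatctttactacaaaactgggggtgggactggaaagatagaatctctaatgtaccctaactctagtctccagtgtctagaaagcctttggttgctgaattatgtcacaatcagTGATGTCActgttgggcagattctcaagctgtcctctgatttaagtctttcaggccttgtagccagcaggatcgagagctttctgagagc
Actl7b promoter, chr4:56741376-56741675, minus strand: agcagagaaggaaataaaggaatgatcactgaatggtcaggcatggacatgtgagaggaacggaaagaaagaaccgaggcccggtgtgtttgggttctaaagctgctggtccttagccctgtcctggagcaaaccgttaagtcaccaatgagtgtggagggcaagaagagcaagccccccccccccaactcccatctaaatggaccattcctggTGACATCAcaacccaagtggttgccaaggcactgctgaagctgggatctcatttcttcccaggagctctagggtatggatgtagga
The match begins 40 bases before the start of Actl7a and 36 bases before that of Actl7b, where it stands on the other strand as TGACATCA. The same letters occur in 3.62% of the 32851 promoters of the table and in those of 7 of the 66 member genes with a promoter there. The other 5 were Cnn1, Des, Myl6, Myo7a and Tpm3, none of which was called lower. The cyclic AMP response element TGACGTCA, on either strand, occurs in 1.79% of all promoters and among the members in that of Myl6. A match is a description of these letters and not a site.

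Actin-related proteins did not share a direction. Actr2 and Actr3 are the actin-like subunits of Arp2/3, which starts branched filaments, and Actr3b is a close relative of Actr3. Actr3 had 10494 in busulphan and 2003 in control (6.06-fold higher). Actr2 had 3039 in busulphan and 608 in control (5.77-fold higher). Actr3b had 270 in busulphan and 53.2 in control (5.86-fold higher). All 3 were called higher under all 7 scalings. The remaining actin-related genes were lower or within 2-fold. Actr10 and Actr1a belong to dynactin, the cofactor of the dynein motor. Actr10 had 8545 in busulphan and a saturated spot of 64583 in control, at least 6.54-fold lower. Actr1a had 7817 in busulphan and 32965 in control, a log2 ratio of -1.87 that was -0.98 under quantile scaling.

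Other actin-related proteins work in the nucleus as parts of chromatin remodelling complexes. Actl6a had 1349 in busulphan and 7823 in control (5.02-fold lower). Actr8 had 2329 in busulphan and 7709 in control, a ratio of -1.52, and its other probe gave -2.19. Actl6a and Actr8 were called lower under all 7 scalings. Actr6 was within 2-fold at -0.51 (2397 in busulphan, 3947 in control), but at -1.39 under spike-in scaling. Actl6b, a neuronal counterpart of Actl6a, had 12.9 in control and was not well above background in busulphan, a bound of -0.83. Under spike-in scaling that bound was -1.71.

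Class II myosin heavy chains of non-muscle cells, which power contraction of the cortex, went opposite ways. Myh9, non-muscle myosin IIA, had 8951 in busulphan and 2585 in control (log2 ratio 2.001), and 1.12 under spike-in scaling. Myh10, non-muscle myosin IIB, had 617 in busulphan and 9625 in control (13.5-fold lower). A second Myh10 probe gave -2.18, at 366 in busulphan and 1911 in control, and one more was not well above background on either array. Myh14, non-muscle myosin IIC, had 126 in busulphan and 341 in control (2.34-fold lower). Both probes of Myh14 gave nearly the same ratio, -1.23 and -1.25. The calls of all 3 held under all 7 scalings, but with normexp background correction Myh14 was within 2-fold, at -0.90. Heavy chains of striated muscle were within 2-fold by their main probe, with Myh7 at 0.40, Myh6 at 0.45, Myh8 at -0.24 and Myh4 at -0.80. The ratios of Myh6 and Myh7 turned to -0.43 and -0.48 under spike-in scaling, and a second Myh4 probe gave -2.02. Myh8 and Myh4 passed 2-fold under spike-in scaling, at -1.12 and -1.68.

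Myosin light chains also held genes of both directions. Myl12b, a regulatory light chain of non-muscle myosin, had 23655 in busulphan and 8200 in control (3.33-fold higher), and its other probe gave 1.22. Under spike-in scaling Myl12b was within 2-fold, at 0.85. Myl6, the essential light chain of smooth muscle and non-muscle myosin, was saturated in busulphan at 63831, against 44024 in control, so its ratio of 0.74 is a bound. The other Myl6 probe, also saturated in busulphan, had 62822 in busulphan and 33590 in control, at least 1.11 and past 2-fold. Myl4, the atrial and embryonic essential light chain, had 252 in busulphan and 3230 in control (11.1-fold lower). Myl3, the ventricular and slow muscle form, had 43.9 in busulphan and 146 in control, a ratio of -1.53 that was -0.80 with normexp background correction. Among the dim light chains Myl1, Myl2 and Myl7, of striated muscle, none passed 2-fold, at 0.092, a bound of 0.19 and 0.42. The signs of Myl1 and Myl7 turned under spike-in scaling, to -0.79 and -0.46.

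Unconventional myosins held the highest ratio of all members, and 7 of the 15 genes were at least 2-fold higher while 3 were lower. These shares were 46.7% and 20.0%, beside 31.3% and 29.5% of all genes. The median log2 ratio of the unconventional myosins, 0.82, turned to -0.059 under spike-in scaling. Myo7a, a myosin that the hair cells of the inner ear need, had 6088 in busulphan and 425 in control (16.6-fold higher). Its probe lies at chr7:105199855-105199914 of mm9, and its ratio ran from 3.17 to 4.30 over the scalings. With normexp background correction it was 3.87. Myo6, which moves towards the pointed end of the filament, had 363 in busulphan and 88.3 in control (4.76-fold higher). Myo10, a motor of filopodia, had 1549 in busulphan and 406 in control (4.41-fold higher). Myo1d, a membrane-binding class I myosin, had 106 in busulphan and 13.6 in control (8.98-fold higher), and 1.36 on the log2 scale with normexp. The calls of these 4 held under all 7 scalings.

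Myo1f, a class I myosin of leukocytes, had 50.6 in busulphan and 20.5 in control, a ratio of 1.51 that was 0.63 under spike-in scaling and 0.70 with normexp. Of the 13 macrophage markers 8 were higher and 2 lower, beside 31.3% and 29.5% of all genes, and their median was 2.72. Their summed scaled signals were 10.3 in busulphan and 63.3 in control, where the saturated spot of Aif1 alone read 62716. Cd163 was not well above background on either array, and the part of macrophages in the Myo1f ratio was not tested. Myo9b, a unconventional myosin, was at 1.01, and under spike-in scaling and with normexp within 2-fold, at 0.13 and 0.88.

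Lower unconventional myosins had low signals in busulphan, though well above background on both arrays. Myo1a, of the intestinal brush border, had 10.4 in busulphan and 244 in control (20.2-fold lower), and -1.95 with normexp. Myo7b, also of the brush border, had 7.90 in busulphan and 30.9 in control (-1.76). Myo15, of hair cell stereocilia, had 20.3 in busulphan and 78.4 in control (-1.74). Myo7b and Myo15 were lower under all 7 scalings, but with normexp both were within 2-fold, at -0.26 and -0.63. By their main probe, carriers of vesicles and membrane did not pass 2-fold, with Myo5a at 0.11, Myo5b at 0.57, Myo1c at 0.82, Myo18a at 0.25 and Myo1e at 0.018. The sign of each of these 5 turned under spike-in scaling, and a second Myo5a probe, with 195 in busulphan and 98.2 in control, was past 2-fold.

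Vimentin (Vim) had 33034 in busulphan and 7501 in control, 5.09-fold higher, by a probe at chr2:13504232-13504291 of mm9. The ratio was 2.35 and ran from 1.47 to 2.97 over the scalings. A second Vim probe had 10.5 in busulphan and was not well above background in control, a bound of 0.70. Sertoli cell markers were higher beside it, with a median log2 ratio of 3.48, from 0.73 for Gata4 (-0.15 under spike-in scaling) to 5.46 for Sox8, both transcription factors. Another probe gave 3.52 for Gata4 and 3.19 for Sox8. The part of the Sertoli cell markers in the Vim ratio was not tested.

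Keratins were mostly dim. Of the 28 on the array 23 could be compared, 18 of these had signals under 100 on both arrays and 10 carry a bound. Of the 23, 5 were lower by at least 2-fold, 2 were higher and 16 passed neither limit. The lower share was 21.7% and the higher share 8.7%, beside 29.5% and 31.3% of all genes. The median log2 ratio of the keratins was -0.56, and -1.49 under spike-in scaling, where 15 were lower by at least 2-fold. With normexp background correction, which shrinks the ratios of dim spots, the median was near 0 at -0.0005. Most lie in the known keratin clusters, 11 on chromosome 11 and 11 on chromosome 15.

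Krt8 and Krt18 are the partners of simple epithelia and form a filament together. Krt8 had 263 in busulphan and 1503 in control (4.94-fold lower), and its other probe gave -1.98. Krt18 had 261 in busulphan and 315 in control, a ratio of -0.063 that lay between -0.95 and 0.11 over the scalings. The ratios of these partners differed by more than the software's error. Krt19, another keratin of simple epithelia, was close to background at 7.32 in busulphan and 9.17 in control, a ratio of -0.12 that lay between -0.998 and 0.17 over the scalings. Krt7, of ducts, had 29.5 in busulphan and 81.3 in control, a ratio of -1.25 that was -0.58 with normexp. Krt23 had 63.4 in busulphan and 293 in control (log2 ratio -2.00), and -1.30 with normexp.

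Krt15, of basal cells in stratified epithelia, had 59.2 in control and was not well above background in busulphan, at least 8.19-fold lower. With normexp Krt15 was within 2-fold, at -0.68. The bound of Krt85, a hair keratin, was -1.04 and was -0.08 with normexp. The higher keratins were Krt17, with 166 in busulphan and 86.1 in control (1.16), and Krt12 of the cornea, with 18.8 in busulphan and a dim spot in control (a bound of 1.54). Neither passed 2-fold with normexp, at 0.82 and 0.46. Of 8 markers of epididymal and rete epithelium, 1 was higher and 2 were lower, with summed scaled signals of 0.679 in busulphan and 1.88 in control. Krt7 and Krt8 are the lower pair, and 4 of the 8 are members. Their defining markers Lcn5 and Lcn8 were not well above background on either array, nor Pax2 and Pax8 in busulphan. Of 7 squamous epithelium markers, among them the members Krt5, Krt10 and Krt14, none passed 2-fold. Their summed scaled signals were 7.71 in busulphan and 9.13 in control. Sfn, at 6488 in busulphan and 8953 in control, made up most of both sums. The median log2 ratio of the 7 was -0.18, and -1.06 under spike-in scaling, beside -0.85 for all genes. Under that scaling Ivl, Krt5, Sfn, Krt10 and Trp63 were past 2-fold lower. Krtap5-4, a keratin-associated protein of hair that the name pattern also takes, had 216 in busulphan and 344 in control (-0.47). Its ratio was -1.35 under spike-in scaling.

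**Figure D3:**
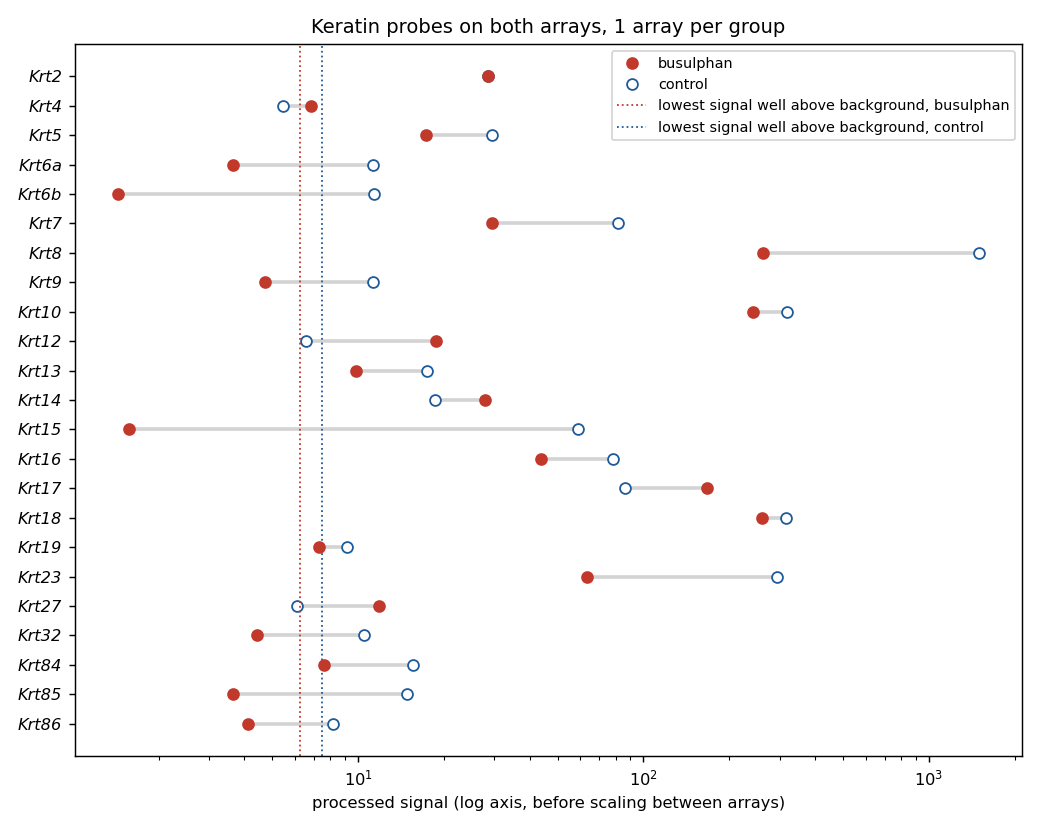
Processed signal (log axis, before scaling between arrays) of the main probe of the 23 keratins compared, with filled points for busulphan and open points for control, 1 array each. Dotted lines mark, for each array, the dimmest signal that still stood well above background, 6.26 for busulphan and 7.50 for control; Krt8, Krt10, Krt18 and Krt23 are the keratins above 200 on at least 1 array.

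Several probes measured the same gene for 26 members, and 21 of these had at least 2 probes that could be compared. The ratios of 1 gene spread by a median of 0.59 on the log2 scale. In 7 genes the spread was over 1, Tpm1 at 2.02, Cald1 at 1.94, Vim at 1.65, Myh10 at 1.58, Acta2 at 1.36, Myh4 at 1.22 and Myo5a at 1.09. Probes gave opposite signs for Cald1, Myo5b and Myo1e. The spread between probes was therefore often larger than the software's error. For Myl12b, Krt8, Myl3 and Myh14 every probe compared was on the same side of 2-fold as the main one.

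**Figure D4:**
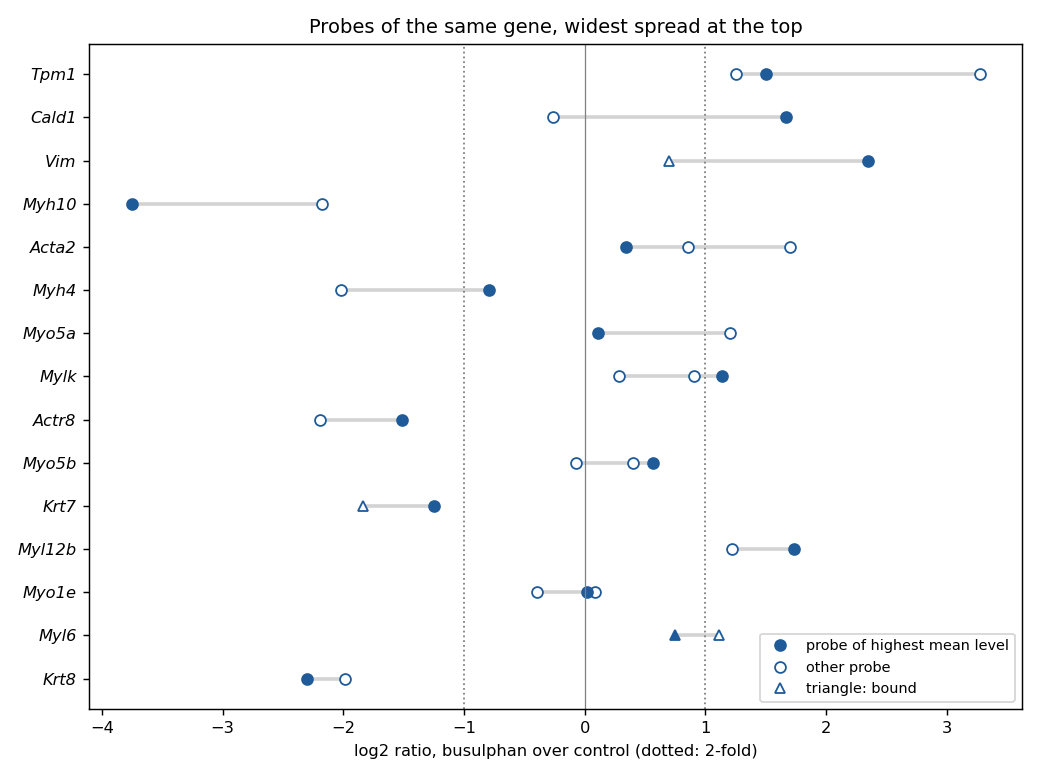
Log2 ratio of busulphan over control (horizontal axis) for each probe of the 15 genes whose probes spread most, widest at the top, with 1 array per group. Filled symbols are the probe of highest mean level, open symbols other probes and triangles bounds; Tpm1 spans 2.02 with all probes above 1, while the probes of Cald1 lie on both sides of 0.

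The wider actin pathway was read from lists of genes outside the name pattern. The counts in these lists stand beside 31.3% of all genes called higher and 29.5% called lower. Of 38 nucleation and polymerisation factors, 15 were higher and 12 lower, and the median log2 ratio was -0.027. Daam2, a formin, had 2357 in busulphan and 229 in control (3.57), and Ssh1, a phosphatase that activates cofilin, 134 in busulphan and 12.6 in control (3.62). The lowest were the testis profilin Pfn3, with 148 in busulphan and 6764 in control (-5.31), and Limk2, a cofilin kinase, at -4.14. Another Limk2 probe gave -0.15. The list also holds 6 subunits of Arp2/3, which are given as the partners of Actr2 and Actr3, a choice made after their values were seen. Arpc4 was 4.52-fold, Arpc3 3.54-fold and Arpc5 3.04-fold higher. Arpc5l, a relative of Arpc5, was 3.08-fold lower, and Arpc2 and Arpc1a were at -0.90 and -0.71. Under spike-in scaling Arpc4 was at 1.29, while Arpc3 and Arpc5 were within 2-fold at 0.94 and 0.72. Arpc5l, Arpc2 and Arpc1a were past 2-fold lower under that scaling, at -2.50, -1.79 and -1.59. The subunits of this complex thus did not share a direction. Bundling, capping and severing proteins were higher for 8 and lower for 7 of 21 genes, and their median of 0.68 turned to -0.20 under spike-in scaling. Lcp1, the leukocyte plastin, had 330 in busulphan and 8.70 in control (5.46), and Scin, which severs filaments, 703 in busulphan and 31.3 in control (4.70). At the low end Fscn3, a testis fascin, had 399 in busulphan and 38931 in control (84.5-fold lower) and Capza3, a testis capping protein, 325 in busulphan and 28489 in control (75.8-fold lower). Spermatid markers were lower beside Pfn3, Fscn3 and Capza3, at a median of -6.16, and their part in these ratios was not tested.

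Proteins that link actin to membranes and adhesions were higher for 10 and lower for 3 of 20 genes, and their median was 1.04 (0.15 under spike-in scaling). Ezr, the membrane linker ezrin, had 7242 in busulphan and 1415 in control (2.56), and Zyx, the adhesion protein zyxin, 27125 in busulphan and 6962 in control (2.17). Vasp, which speeds filament growth, was the lowest at 1222 in busulphan and 26800 in control (-4.25), followed by the leukocyte parvin Parvg (-3.29).

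Genes of the serum response factor pathway, through which actin controls many of its own genes, were higher for 8 and lower for 2 of 14, and their median was 1.39 (0.51 under spike-in scaling). Fhl1, a LIM protein, had 6873 in busulphan and 916 in control (3.12), and the immediate early gene Egr1 40290 in busulphan and 10813 in control (2.11). The coactivators Mrtfa and Mrtfb, which bind actin monomers, were the lowest, Mrtfa at 1904 in busulphan and 8246 in control (-1.91) and Mrtfb at 11.9 in busulphan and 61.2 in control (-2.15). Of 20 intermediate filament partners, 3 were higher and 6 lower, and their median of 0.17 turned to -0.72 under spike-in scaling. Lmna, of the nuclear lamina, had 19724 in busulphan and 9350 in control (1.29), and Ina, a neuronal filament, was at 1.04. Bfsp2, of the lens, and Pkp1, a desmosome protein, were dim in busulphan and at least 24.5-fold and 21.2-fold lower. Among the remaining cell type markers, those of spermatogonia were higher for 5 and lower for 1 of 11 genes (median 0.62), those of Leydig cells for 4 and 1 of 10 (0.30) and those of endothelium for 2 and 3 of 14 (-0.27). The medians for spermatogonia and Leydig cells turned to -0.26 and -0.59 under spike-in scaling.

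**Figure D5:**
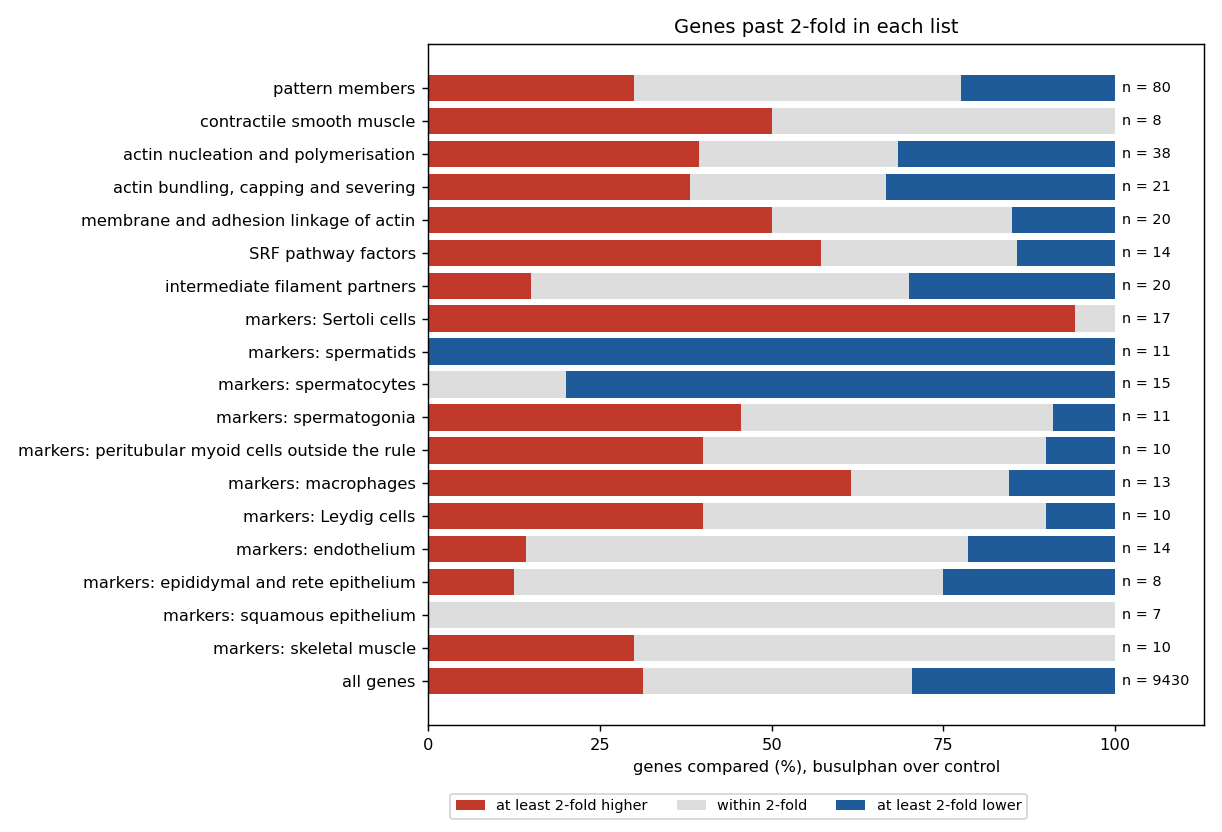
Share of genes compared (horizontal axis, percent) that were at least 2-fold higher (red), within 2-fold (grey) or at least 2-fold lower (blue) in busulphan over control, for the members, pathway lists, cell type marker lists and all genes, with the number of genes beside each bar. Members lie close to all genes for the higher share, Sertoli cell markers are nearly all higher and spermatid markers all lower.

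The promoters of Acta1 and Acta2 hold CArG boxes, the sequence that serum response factor binds, and are shown because the actin genes of muscle are its best known targets. Both come from RefSeq on GRCm38.p6 and run from 250 bases before to 50 bases after the start. Capitals mark matches to the CArG box, on either strand, with at most 1 departure.
Acta1 promoter, chr8:123894726-123895025, minus strand: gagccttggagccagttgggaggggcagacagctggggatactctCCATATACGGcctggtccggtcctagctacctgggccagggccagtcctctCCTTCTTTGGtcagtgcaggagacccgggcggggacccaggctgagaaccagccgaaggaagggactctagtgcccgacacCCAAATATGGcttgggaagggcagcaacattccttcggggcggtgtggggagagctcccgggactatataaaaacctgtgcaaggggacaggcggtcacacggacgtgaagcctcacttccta
Acta2 promoter, chr19:34255324-34255623, minus strand: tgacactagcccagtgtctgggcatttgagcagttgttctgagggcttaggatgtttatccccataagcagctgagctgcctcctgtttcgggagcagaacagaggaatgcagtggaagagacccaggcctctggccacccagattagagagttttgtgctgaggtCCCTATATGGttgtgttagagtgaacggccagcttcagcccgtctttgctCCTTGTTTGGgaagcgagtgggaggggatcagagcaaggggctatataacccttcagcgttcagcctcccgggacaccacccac
In Acta1 the matches begin 205, 154 and 73 bases before the start, and the last is exact. In Acta2 they begin 84 and 34 bases before the start, each with 1 departure. An exact match occurs in 1.63% of all promoters, and one with at most 1 departure in 9.98%. Among the 66 member genes with a promoter 7 had an exact match (Acta1, Krt12, Myh4, Myl3, Myl6, Myl7 and Myo1e) and 13 a match with at most 1 departure. Of the 7, 2 were called higher and 1 lower, beside 31.3% and 29.5% of all genes, and their median log2 ratio was 0.42. Krt12, a bound, and Myl3 are among these calls and were within 2-fold with normexp, at 0.46 and -0.80. The 55 genes compared without an exact match had 16 higher and 13 lower, with a median of 0.19. A match describes these 300 bases and no more, and sites further away were not searched.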

How the data were processed

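There was 1 array of 1 colour per group. Per the file headers, the authors' deposited intensity values come from Agilent Feature Extraction 11.5.1.1, with background subtracted and trends across the slide removed. The authors' deposited log2 table equals log2 of that signal minus 9.82 (busulphan) and 10.03 (control). Both arrays were on 1 slide, per the file headers, and each preparation cannot be told apart from its group. From the processed signal, log2 values were taken minus each array's 75th percentile over non-control probes, without 4 outlier probes. A probe counted where either array had it well above background. A gene took its probe of highest mean. A probe dim or saturated on 1 array gave a bound, counted at that bound (14 members, 1026 genes in all). The 14 genes with no fold were left out. Names came through accessions for 110 member probes, and the files give coordinates on mm9 (none for 1 Krt10 probe). The precision is limited by having 1 array per group. Members and lists were chosen with earlier results of these data known. Named genes are the 3 highest and 3 lowest of each role, the 2 highest and 2 lowest of each other list, and a list of well known members. Some of what this takes is not reported here. Alternatives were normexp with offset 50 (limma 3.58.1, R 4.3.3), 6 other scalings, filters, probe rules and thresholds, run in Python 3.11.15 with pandas 2.3.3 and numpy 2.4.6.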

Additional observations from a re-analysis of the deposited data

How the results depend on the processing

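Counts of members moved past 1.5 times the main count, or the median past 1 software error, under 4 alternatives. Spike-in scaling gave 10 higher, 34 lower and a median log2 ratio of -0.78. Over the 9293 genes compared in that scaling, 1525 (16.4%) were higher and 4380 (47.1%) lower. Normexp background correction gave 11 lower (14.7%) and 19 higher (25.3%), beside 2139 lower (23.2%) and 2323 higher (25.1%) over all genes. A 4-fold threshold gave 10 higher (12.5%) and 9 lower (11.2%), by its own construction, beside 14.4% and 17.8% of all genes. Without scaling the median was -0.061. No count or median of members moved in this sense under the other alternatives run, where 20 to 31 were higher and 16 to 27 lower. As shares, 25.3% to 37.5% were higher and 20.3% to 33.8% lower. Over all genes these shares ran from 28.0% to 39.5% and from 27.0% to 37.0%. For 49 named members, 535 of 630 values under the 13 settings without a change of threshold or set stayed within 1.96 software errors of the main value, which are wide for dim probes. The settings for dim probes, saturated spots and several probes cannot change a gene with 1 unsaturated probe well above background on both arrays. The deposited log2 values are the same signal with nearly the same offset. Part of the 535 was thus fixed in advance and is no measure of stability. The other 95 moved, 46 of them under spike-in scaling and 10 under normexp, and none reversed a called ratio. Spike-in scaling shifts ratios by less than the 2-fold of a call, so it could reverse none. The cause of these moves was not tested. No paired analysis was possible because each group has 1 array. Dim probes limit the keratins, since signal near background cannot size a ratio, and saturation limits Myl6 and Actr10.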
